A study of Saccharomyces cerevisiae with 8 samples.

Results

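The comparison described here sets the mutation strain against the control strain of Saccharomyces cerevisiae within the libraries titled nHP. It uses 2 nHP mutation libraries and 2 nHP control libraries, chosen by their titles, out of 8 RNA sequencing libraries in all. Genes were compared if they passed a filter on low counts, which 6174 of the 7126 genes in the deposited table did. The other 4 libraries, titled HP, are 2 of the mutation strain and 2 of the control strain.

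Both strains are labelled BY4741, a laboratory strain that is haploid and of mating type a, with deletions in HIS3, LEU2, MET17 and URA3. The mutation strain carries the phenotype entry of a better tolerance to oxidation, and its genotype entry says no more than that it is a mutant, so which gene is altered is not stated in these labels. The control strain carries the entries for a control. All cultures were grown in synthetic medium without uracil and taken in mid-exponential phase. The entry for the medium gives hydrogen peroxide to every control library and none to every mutation library, whatever the title. If that entry is right, strain and peroxide cannot be told apart in any value below. Nothing in the labels says that the libraries of a group came from separate cultures, so p-values measure the spread between these libraries, which may be technical.

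Yeast places much of its growth machinery under shared control. The transcription factor Rpn4 acts on proteasome genes, the heat shock factor Hsf1 on chaperone genes, and a further set of factors on the genes that assemble ribosomes, so each set can change as a block. The Ty retrotransposons, mobile elements present in many copies, are transcribed more in haploid than in a/alpha diploid cells, and the same holds for genes placed under their control.

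The nHP libraries held 8296523 and 8850123 counts for the mutation strain and 8893766 and 9089557 for the control strain. A count of 0 allows up to 3 counts, which is 0.325 to 0.374 CPM (normalised read counts, per 1000000 counts of the library after a composition correction), for counting error only. Among 5437 genes whose mean reached 10 CPM, replicates differed by more than 1.5-fold for 54 genes in the mutation strain and 12 in the control strain. TAF10, which encodes a component of both SAGA and TFIID, stood at 11640 and 13230 CPM in the mutation libraries, against 91.95 and 111.8 CPM in the control libraries. Of the genes listed as deleted, LEU2 and MET17 had 0 counts in all 8 libraries, while URA3, described further on, and HIS3 had counts. HIS3, which in BY4741 lacks an internal stretch of the gene, had 484 and 404 counts in mutation libraries and 598 and 778 in control libraries (log2 fold change −0.43). Its call ended without nHP mutation replicate 2 (−0.30), nHP control replicate 2 (−0.22) or either HP mutation library (−0.43). The 6 markers of mating type a summed to 50 and 54.3 CPM in the mutation libraries, against 2520 and 2880 CPM in the control libraries, and all 6 fell. The 5 genes shared by all haploids summed to 57.9 and 51.5 CPM, against 622 and 685 CPM, and all 5 fell. The 4 markers of mating type alpha summed to 50.2 and 45.9 CPM, against 68.7 and 69.6 CPM, and 2 of the 4 fell. The mutation libraries thus had low levels of the markers that define the cell type on their label. Of 4 meiotic markers none was called, with sums of 66.2 and 59.3 CPM in mutation libraries and 64.8 and 64.8 CPM in control libraries. The part of this marker difference in the results below was not tested.

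A gene was called when its adjusted p was below 0.05, and "rose" and "fell" are used for called genes, relative to the control strain. Of 6174 genes tested, 1318 were called (21.3%), of which 706 rose (11.4%) and 612 fell (9.91%). Outside a list of 42 mating and cell type genes and TAF10, 6131 genes remained, of which 704 rose and 577 fell. The 2 directions differed in size. At least 2-fold changes numbered 26 among these rises and 90 among these falls, while 521 of the rises and 345 of the falls were under 1.5-fold. The groups of libraries did not overlap for all 1318 called genes, nor for 65.2% of all genes tested. Each rise or fall is a change relative to the rest of the transcripts, since the counts carry no measure of RNA per cell. The split of directions depended on the scaling. Leaving out composition normalization moved the median over all genes by −0.128 on the log2 scale, and 419 genes rose and 1236 fell.

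Rises lay mostly among strongly expressed genes. In the lowest class by read density, under 15 RPKM (reads divided by gene length and by library total), 2.12% of 753 genes rose and 9.96% fell. From 15 to 60 RPKM, 5.5% rose and 11.8% fell, and from 60 to 240 RPKM, 16.9% rose and 8.92% fell. In the class of 240 RPKM and above, 21.7% of 877 genes rose and 7.41% fell. The share of calls thus followed the level upward for rises, while falls stayed between 7.41% and 11.8%. Values in the lowest class are the least precise. Over the nuclear chromosomes the median ran from −0.064 on chromosome IX to 0.022 on chromosome VIII on the log2 scale, with 18.1% to 25% of genes called. For the 6 genes tested of the mitochondrial genome it was −0.387, and none was called. The number of calls rested on all 4 libraries. Leaving out 1 mutation library gave 968 calls (replicate 1) or 437 (replicate 2), and leaving out 1 control library gave 418 (replicate 1) or 704 (replicate 2).

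**Figure D1:**
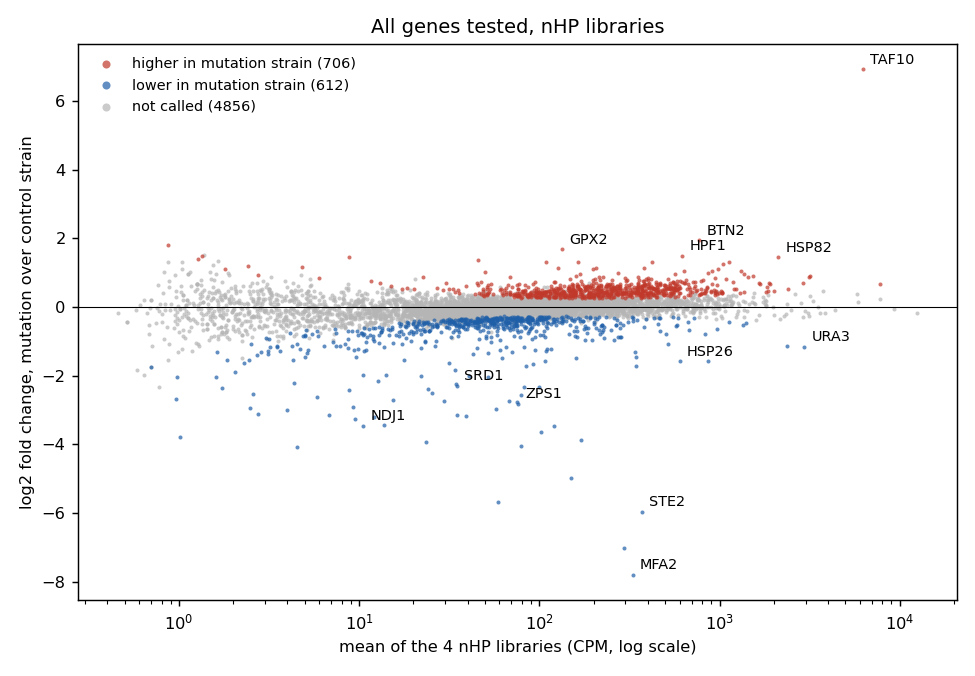
Each point is 1 of 6174 genes, placed by its mean over the 4 nHP libraries in CPM on a log axis and by its log2 fold change, mutation strain over control strain. The 706 genes that rose lie mainly to the right and the 612 that fell reach further from 0, with TAF10 alone at the top.

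The proteasome, the protease that degrades ubiquitin-tagged proteins, rose as a block. All 14 genes of its core particle rose, with a median log2 fold change of 0.50, against −0.02 over all genes tested. Of 32 genes for the regulatory particle, its activators and its assembly, 24 rose and none fell, with a median of 0.51. The proteasome element GGTGGCAAA, the binding sequence of Rpn4, was found on either strand within 300 bases before the start codon in 12 of the 14 core genes and in 16 of the 32 regulatory genes, against 1.22% of 5902 promoters. Of the 24 regulatory genes that rose, 16 held it, and of the 8 that were not called, 0 did. The sites of 4 genes are shown, those with the largest rises among the genes that hold the element in the regulatory particle (ECM29 and RPN1) and in the core (PRE8 and PRE4). Sequences are RefSeq R64, read along the strand of the gene, with the element in capitals, or its reverse complement TTTGCCACC.

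ECM29, chrVIII:39933-39981, plus strand: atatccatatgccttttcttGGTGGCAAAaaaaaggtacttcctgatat
RPN1, chrVIII:164828-164876, minus strand: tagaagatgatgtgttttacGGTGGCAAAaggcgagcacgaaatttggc
PRE8, chrXIII:86831-86879, minus strand: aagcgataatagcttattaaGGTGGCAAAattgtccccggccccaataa
PRE4, chrVI:249949-249997, minus strand: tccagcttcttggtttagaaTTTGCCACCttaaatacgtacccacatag

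ECM29 (YHL030W), a scaffold protein that binds the assembled proteasome, had 264.5 and 303.8 CPM in mutation libraries and 125.2 and 134.2 CPM in control libraries. Its log2 fold change of 1.13 ± 0.09 (standard error, 2 libraries per group, as for every ± below) was the largest in the family (adjusted p = 9.1e-06). RPN1 (YHR027C), a base subunit of the regulatory particle, had 1269 and 1492 CPM in the mutation strain, against 772.1 and 808.7 CPM in the control strain (0.80 ± 0.11). The mutation libraries lay above the control libraries for each gene without overlap. BLM10, an alternative activator of the core, rose by 0.80 ± 0.09 on the log2 scale. In the core, the log2 fold changes ran from 0.38 for PRE3 to 0.60 ± 0.10 for PRE8 and 0.60 ± 0.09 for PRE4. The call of PRE3 ended without nHP mutation replicate 2 (0.33) and without nHP control replicate 1 (0.315). RPN4, the regulator itself, had 436 and 399.5 CPM in mutation libraries and 335.6 and 320.7 CPM in control libraries, a log2 fold change of 0.35 ± 0.10, and this call ended when any 1 of the 4 nHP libraries was left out (0.30 to 0.42), without HP mutation replicate 1 (0.35) and without composition normalization (0.22). Among 31 genes of ubiquitin and Cdc48, which tag and extract substrates, 16 rose and none fell. At an unadjusted p below 0.05 in edgeR, 2 regulatory particle genes and none of the core or ubiquitin genes were lower. RAD23, which carries tagged proteins to the proteasome, rose by 0.68 ± 0.10. Without nHP mutation replicate 2 the risers numbered 7 in the core, 16 in the regulatory particle and 8 in ubiquitin and Cdc48. Without nHP control replicate 1 they numbered 4, 11 and 5.

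Cytosolic chaperones, which fold new proteins and rescue misfolded ones, held 7 of the 15 largest rises. Of 14 genes for Hsp90 and its partners 8 rose and none fell, and of 28 genes for the Hsp70 system and Hsp104, 18 rose and 1 fell. BTN2 (YGR142W), which gathers misfolded proteins into deposits, had 1137 and 1306 CPM in mutation libraries and 311.9 and 318.5 CPM in control libraries, a 3.87-fold rise (log2 1.95 ± 0.11, adjusted p = 4.53e-07). Its paralog CUR1 (YPR158W) had 151.9 and 156.4 CPM, against 58.2 and 66.66 CPM (1.30 ± 0.10). For each paralog the groups lay more than 2-fold apart.

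The Hsp90 gene HSP82 (YPL240C) had 2855 and 3354 CPM in mutation libraries and 1152 and 1118 CPM in control libraries (1.45 ± 0.14, adjusted p = 3.04e-05). The second Hsp90 gene, HSC82, had 3708 and 4425 CPM, against 2194 and 2238 CPM (0.88 ± 0.13). The 2 genes are 91.7% identical where they align, so reads may have been split between them. STI1, which links Hsp70 to Hsp90, rose by 1.26 ± 0.13. The J proteins YDJ1 and SIS1, which start the Hsp70 cycle, rose by 1.31 ± 0.13 and 1.10 ± 0.11, FES1, which releases its nucleotide, by 1.15 ± 0.09, and the Hsp70 gene SSA2 by 1.06 ± 0.12.

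Chaperones that act on aggregates gave mixed values. HSP42, a small chaperone that sequesters misfolded proteins, rose by 0.91 ± 0.13. The disaggregase gene HSP104 rose by 0.70 ± 0.14, a call that ended without nHP control replicate 1 (0.75) or nHP control replicate 2 (0.67). HSP26, the other small chaperone gene, had 340.7 and 263.1 CPM in mutation libraries and 902.8 and 895.6 CPM in control libraries, a 2.98-fold fall (−1.57 ± 0.13, adjusted p = 1.22e-05). It was the exception on its list, and it stands on the zinc list described further on as well.

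Members of other folding systems rose as well. Of 15 genes for the chaperonin CCT and its helper prefoldin, which fold actin and tubulin, 9 rose, CCT2 by 0.67 ± 0.12. Of 23 genes for mitochondrial chaperones and import 9 rose, with HSP78 at 0.78 ± 0.10 and MDJ1 at 0.95 ± 0.11. Genes for folding in the endoplasmic reticulum had a median log2 fold change of 0.02, against −0.02 over all genes tested. Of these 31 genes of the endoplasmic reticulum 9 rose and 2 fell. KAR2, its Hsp70, had 1138 and 1318 CPM in mutation libraries and 589.7 and 591.2 CPM in control libraries (1.06 ± 0.11), and ERO1, the oxidase that drives disulfide bonds, rose by 0.98 ± 0.09, while the other 7 risers reached at most 0.42. Leaving out nHP mutation replicate 2 gave 4 risers for Hsp90, 12 for Hsp70, 6 for CCT, 4 for mitochondria and 2 for the endoplasmic reticulum. Leaving out nHP control replicate 1 gave 4, 10, 4, 4 and 3, and leaving out nHP control replicate 2 gave 5, 11, 8, 6 and 2. The falls in the endoplasmic reticulum numbered at most 1 in these 3 cases.

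The heat shock element was searched for in its strict form of 3 alternating units on both strands. It was in 6 of 28 promoters of the Hsp70 list and 1 of 14 of the Hsp90 list, against 0.881% of all promoters, and all 7 of these genes rose. Of the largest rises, STI1 and FES1 held it; capitals mark the 13 bases, which for FES1 are the reverse complement.

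STI1, chrXV:380791-380843, plus strand: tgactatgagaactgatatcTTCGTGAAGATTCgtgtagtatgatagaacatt
FES1, chrII:444832-444884, minus strand: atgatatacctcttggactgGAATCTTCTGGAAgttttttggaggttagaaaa

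Genes that build ribosomes rose, while the genes for the ribosomal proteins themselves were hardly called. Of 49 genes of the small subunit processome, which cuts and folds the ribosomal RNA, 35 rose, and of 60 genes for assembly of the large subunit 49 rose. None of the 109 fell in edgeR, DESeq2 or limma-voom, nor at an unadjusted p below 0.05 in edgeR, and their median log2 fold change was 0.54. Of 137 genes for cytosolic ribosomal proteins none rose and 1 fell, RPS9A by 0.39 ± 0.12, with 91.8% identity to RPS9B where aligned. That call ended without nHP mutation replicate 2 (−0.25), nHP control replicate 1 (−0.49), nHP control replicate 2 (−0.25) or either HP mutation library (−0.38 and −0.39), and in DESeq2 (−0.37). Unadjusted p was below 0.05 for 5 of the 137, all lower, and limma-voom called 1 and DESeq2 none. Their median was 0.05, and −0.08 without composition normalization, against 0.41 for the 109 assembly genes under that scaling. Of 67 mitochondrial ribosomal protein genes none rose and 1 fell, with 3 higher and 4 lower at an unadjusted p below 0.05, and DESeq2 called none.

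NOP7 (YGR103W), needed for the large subunit, had 1023 and 1258 CPM in mutation libraries and 555.7 and 599.7 CPM in control libraries (0.98 ± 0.13, adjusted p = 0.000416). ENP2, of the processome, had 422.8 and 489.1 CPM, against 233.3 and 264.9 CPM (0.87 ± 0.11). The groups were apart for NOP7 and ENP2, and in each the second mutation library was the higher. NUG1, an export GTPase, and KRR1, of the small subunit, rose by 0.85 ± 0.12 and 0.79 ± 0.11. RNA polymerases I and III, which make the ribosomal and transfer RNAs, had 15 of 37 genes higher and none lower, and RPA190, the largest subunit of polymerase I, rose by 0.65 ± 0.12, a call that ended when nHP control replicate 1 was left out (0.61). Of 57 genes for translation factors and tRNA synthetases 33 rose, PRT1, a subunit of initiation factor 3, by 0.72 ± 0.12. The 1 that fell was ANB1, a form of initiation factor 5A made at low oxygen, by 0.97 ± 0.10. ANB1 is 91.1% identical to HYP2 where the 2 align.

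These counts rested on few libraries. The 84 risers of ribosome assembly became 28 when nHP mutation replicate 2 was left out and 22 when nHP control replicate 1 was, the 15 of polymerases I and III became 3 and 0, and the 33 of translation became 10 and 2, or 14 without nHP control replicate 2. The medians moved less, since that of the assembly genes was 0.48 and 0.45 without these libraries.

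The PAC element GCGATGAG was in 51% of processome promoters and 61.7% of large subunit promoters, against 4.12% of all promoters. The RRPE element AAAAATTTT was in 63.3% and 70%, against 7.47%. The share with PAC was 18.9% for polymerases I and III. Of the 84 assembly genes that rose 52 held PAC, and of the 25 that were not called 10 did. RRPE was held by 56 of the 84 and 17 of the 25. The letters of these elements do not overlap. Neither element was found for ENP2, and no PAC was found for RPA190. The sites of 3 of the other genes named above are shown with PAC in capitals.

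NOP7, chrVII:695266-695313, plus strand: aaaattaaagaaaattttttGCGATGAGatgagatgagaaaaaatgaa
NUG1, chrV:162598-162645, plus strand: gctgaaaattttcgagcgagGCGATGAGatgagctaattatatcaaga
KRR1, chrIII:23455-23502, minus strand: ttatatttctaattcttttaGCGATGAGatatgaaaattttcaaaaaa

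**Figure D2:**
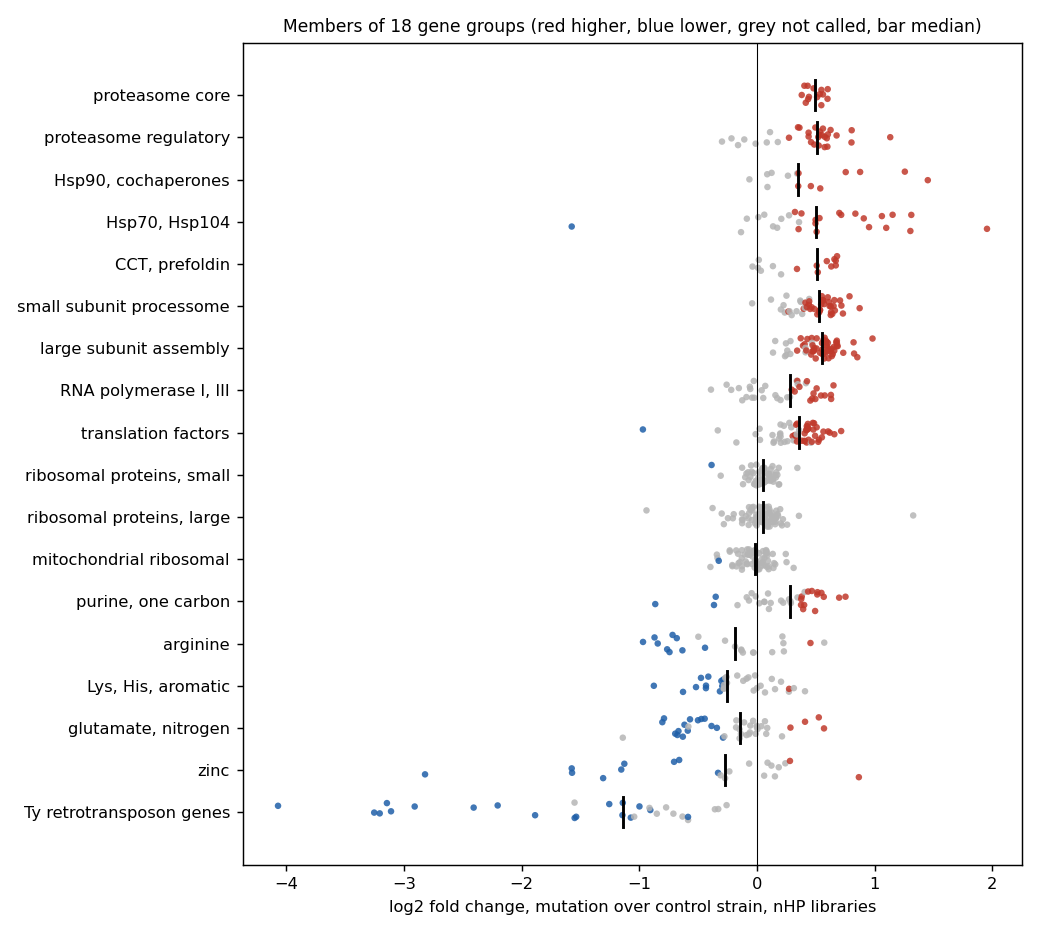
Each point is the log2 fold change of 1 gene, mutation strain over control strain in the nHP libraries, in 18 groups of genes, with a bar at the median of the members tested. Proteasome, chaperone and ribosome assembly genes lie right of 0, ribosomal protein genes lie at 0, and zinc, nitrogen, arginine and Ty genes lie left of it or spread to the left.

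Of 38 genes for peroxide, thioredoxin and glutathione enzymes, 10 rose and 2 fell. The rises numbered 8 without nHP mutation replicate 1, 6 without nHP mutation replicate 2 and 5 with nHP control replicate 1 left out, and the falls numbered 1, 0 and 0. GPX2 (YBR244W), a glutathione peroxidase gene, had 201.7 and 205.5 CPM in mutation libraries and 46.19 and 79.75 CPM in control libraries (1.69 ± 0.22, adjusted p = 0.000416). SRX1 (YKL086W), which repairs oxidized peroxiredoxins, had 70.38 and 60.61 CPM, against 19.69 and 31.06 CPM (1.37 ± 0.20). For these genes the control libraries differed more from each other than the mutation libraries did. Of 24 reductases and exporters driven by the peroxide factor Yap1, 7 rose and none fell. This became 4, 3, 1 and 4 without nHP mutation replicate 1 or 2 or nHP control replicate 1 or 2, in that order. The Yap1 element TTAGTAA was in 41.7% of the promoters of that list and in 34.2% of those of the peroxide list, against 7.91% of all promoters. On the Yap1 list 2 of 7 genes that rose held it and 8 of 17 not called did. On the peroxide list it was held by 5 of 10 that rose, 8 of 26 not called and 0 of 2 that fell. GPX2 holds it, shown in capitals, on the strand of the gene.

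GPX2, chrII:707248-707294, plus strand: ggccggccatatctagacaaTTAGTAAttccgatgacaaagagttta

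Several biosynthetic routes had more rises than falls. In purine and one carbon synthesis 14 of 35 rose and 3 fell. GUA1, for the last step to GMP, had 884.1 and 1104 CPM in mutation libraries and 559.2 and 621.1 CPM in control libraries (0.75 ± 0.13, adjusted p = 0.00238), whereas the purine and cytosine permease FCY2 fell by 0.86 ± 0.11. In branched chain, serine, threonine and glycine metabolism 12 of 26 rose and none fell, LEU1 of leucine synthesis by 0.76 ± 0.10. In fatty acid and phospholipid synthesis 10 of 39 rose and 3 fell. INO1, which makes inositol for phospholipids, had 181.9 and 284.9 CPM in mutation libraries and 91.63 and 97.17 CPM in control libraries (1.31 ± 0.19), so its mutation libraries differed from each other but not enough to meet the controls. CHO1, for phosphatidylserine, rose by 0.78 ± 0.12. Without nHP mutation replicate 2 the risers on the 3 lists numbered 5, 4 and 4, without nHP control replicate 1 they numbered 2, 1 and 3, and without nHP control replicate 2 they numbered 13, 10 and 5. The falls of the purine list numbered 1 or 2 when any 1 nHP library was left out, and so did those of the lipid list.

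Of 25 genes of the DNA damage response 7 rose, or 28% against 11.4% of all genes tested, and 1 fell, and 4 rose and none fell when nHP mutation replicate 2 or either nHP control library was left out. RNR1, the large subunit of ribonucleotide reductase, rose by 0.79 ± 0.15, but not without nHP mutation replicate 2 (0.54) or nHP control replicate 1 (0.67). Outside these groups, ZPR1, a folding factor for elongation factor 1A, rose by 1.32 ± 0.10. The cell wall protein genes HPF1 and PIR3 rose by 1.5 ± 0.11 and 1.13 ± 0.12, and CYB2, for lactate use, by 1.11 ± 0.23, which was not called without nHP mutation replicate 1 (0.75).

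The largest falls outside the mating genes formed no single pathway. NDJ1 (YOL104C), a meiotic telomere gene, had 1.993 and 1.484 CPM in mutation libraries and 19.36 and 19.26 CPM in control libraries (−3.46 ± 0.22, adjusted p = 1.03e-06). YGL193C overlaps the noncoding RNA RME2 in R64, where its protein is entered as uncharacterized. It had 2.741 and 1.855 CPM, against 26.4 and 24.13 CPM (−3.45 ± 0.24). Reads of YGL193C and RME2 cannot be told apart there. ICS2 and SRD1 fell by 2.40 ± 0.19 and 2.30 ± 0.12, and VBA2, a vacuolar transporter of basic amino acids, by 2.0 ± 0.13. MHF2, a DNA repair subunit, fell by 1.97 ± 0.19, and the uncharacterized YPR027C fell by 2.70 ± 0.21. TEC1, a transcription factor of filamentous growth, had 44.47 and 43.05 CPM, against 140.7 and 138.5 CPM (−1.67 ± 0.12).

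**Figure D3:**
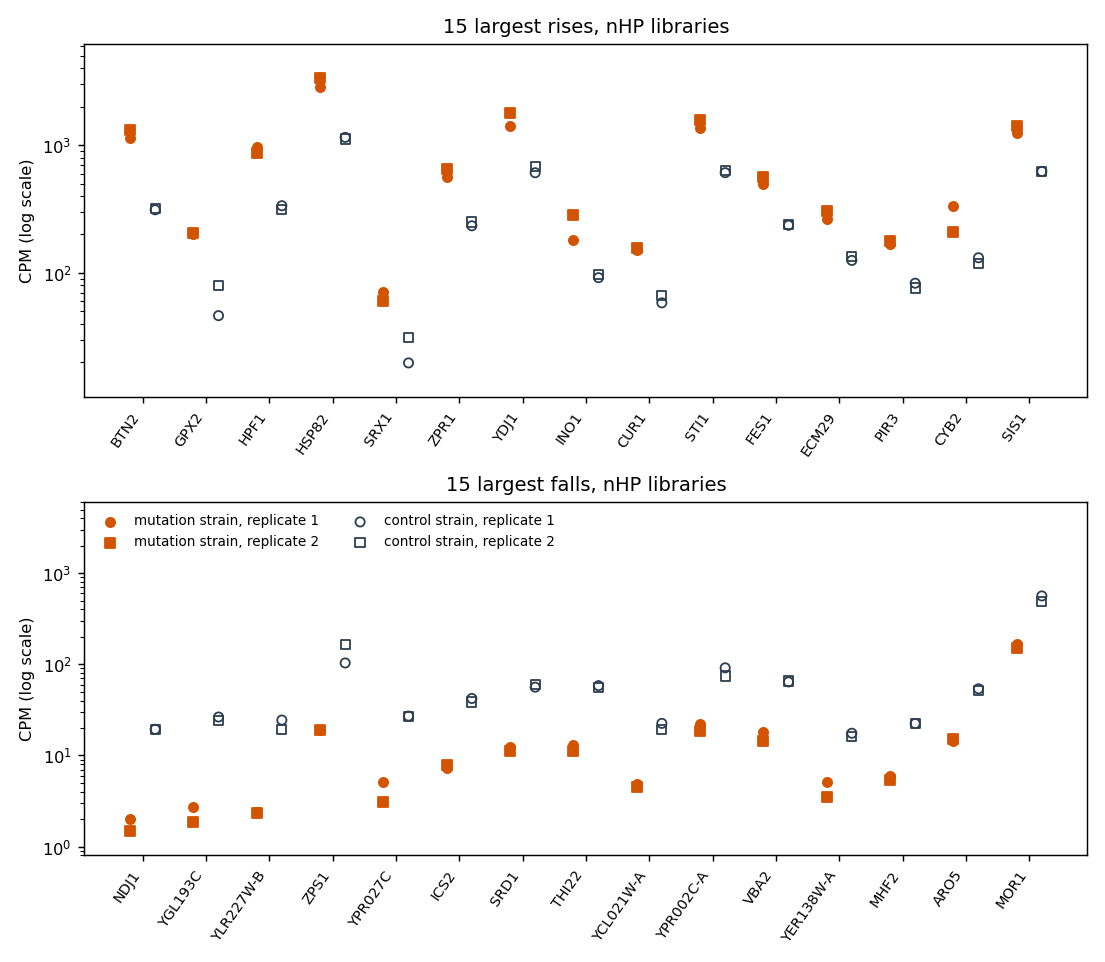
CPM on a log axis for the 15 largest rises (upper panel) and the 15 largest falls (lower panel) outside the mating genes, with filled points for the 2 mutation libraries at the left of each gene and open points for the 2 control libraries at its right. Absence of overlap was a condition for a gene to be drawn; the falls reach 11-fold for NDJ1, and the rises 3.87-fold for BTN2.

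The Ty retrotransposon genes that were tested had lower summed counts in the mutation strain. Of 91 annotated Gag and Gag-Pol genes 29 passed the filter on low counts, and the sums here cover only those. Their counts summed to 979 and 866 in mutation libraries and 2707 and 2494 in control libraries. In CPM these sums were 122 and 107 against 293 and 270. The groups were well apart, though with 2 libraries each an exact permutation test cannot fall below p = 0.333. Of the 29 genes 18 fell and none rose, and 10 fell under a filter of 10 CPM in 2 libraries. Since low genes pass by their higher group, that count and all the sums are descriptions. The 18 tested of 61 Ty1 genes summed to 84.3 and 77.2 CPM, against 216 and 195 CPM. The 7 tested of 20 Ty2 genes summed to 12 and 10 CPM, against 26.1 and 28.5 CPM. The 2 tested of 5 Ty4 genes summed to 8.97 and 5.57 CPM, against 11.1 and 8.55 CPM, which overlap. The single tested Ty3 gene, YGR109W-B, had 13.33 and 12.12 CPM, against 24.99 and 22.72 CPM (−0.91 ± 0.15). The Ty1 gene YLR227W-B fell by 3.21 ± 0.22 and YJR027W by 3.14 ± 0.24. Copies of 1 element are near-identical, so how reads were shared among them is unknown, and a level for 1 copy is uncertain.

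Of the 15 largest falls, 6 lie next to a Ty element or a long terminal repeat in R64, and of the 15 largest rises 2 do. Among 192 genes tested that lie next to such an element, 17.2% fell and 6.25% fell at least 2-fold, against 9.62% and 1.45% of 5518 other genes. Mating genes were not left out of the 192 or the 5518. The 6 among the largest falls are NDJ1, SRD1, THI22, YCL021W-A, YER138W-A and MOR1. MOR1 (YDR366C) had 167.3 and 151.5 CPM in mutation libraries and 563.1 and 485.1 CPM in control libraries. Where aligned, MOR1 is 94.1% identical to YIL060W, and YER138W-A is 98.1% identical to the same YIL060W. Reads may have been split among these genes. THI22 lies next to the mating gene AXL1 too. Whether the cells carry these elements at the places of the reference was not tested.

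Genes that take up and store zinc, or respond to its lack, fell more often than they rose. Of 21 zinc genes 9 fell and 2 rose, with a median of −0.27. ZPS1 (YOL154W), a secreted protein induced by low zinc, had 18.81 and 19.17 CPM in mutation libraries and 103.5 and 164.8 CPM in control libraries (−2.82 ± 0.20, adjusted p = 2.41e-06). ZRT1 (YGL255W), the high affinity zinc transporter, had 418.8 and 448.3 CPM, against 1173 and 1403 CPM (−1.57 ± 0.13). ZAP1, the zinc-sensing activator of these genes, fell by 0.70 ± 0.10, FET4, a low affinity transporter of iron and zinc, by 1.31 ± 0.13, and ADH4, an alcohol dehydrogenase gene induced by low zinc, by 1.15 ± 0.13. The falls numbered 7 or 8 whichever nHP library was left out. The 2 that rose were ZRT2, a low affinity zinc transporter, at 0.28, and TSA1, a peroxiredoxin gene, at 0.87. The call of ZRT2 ended when any 1 nHP library was left out (0.266 to 0.315), without either HP mutation library (0.28) and without composition normalization (0.15). The call of TSA1 ended without nHP control replicate 1 (0.67). The zinc response element, searched for on both strands in its 11-base palindromic form and added to the search after the values were seen, was in 2 of the 21 promoters and in 0.102% of all promoters. It was held by 1 of the 9 genes that fell, 1 of the 10 not called and 0 of the 2 that rose. The 1 that fell is ZRT1, shown with the element in capitals.

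ZRT1, chrVII:20754-20804, plus strand: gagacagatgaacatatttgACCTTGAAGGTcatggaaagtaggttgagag

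Nitrogen and amino acid genes fell more often than they rose. Of 42 genes for glutamate and nitrogen use 15 fell and 4 rose. GLN1, glutamine synthetase, had 788.1 and 734.4 CPM in mutation libraries and 1140 and 1216 CPM in control libraries (−0.63 ± 0.10, adjusted p = 0.00171), and MEP2, an ammonium transporter and sensor, fell by 0.59 ± 0.09. Of 23 genes for arginine 9 fell and 1 rose. ARG4 (YHR018C), which makes arginine in the last step, had 182.1 and 170.6 CPM, against 335.9 and 354.2 CPM (−0.97 ± 0.10). Of 33 genes for lysine, histidine and aromatic amino acids 11 fell and 1 rose, HIS4 of histidine synthesis by 0.88 ± 0.10. Of 43 sulfur genes 11 fell and 6 rose, and YCT1, a cysteine transporter, fell by 0.86 ± 0.11. The sulfur list had more rises than falls without nHP mutation replicate 1 or 2 or nHP control replicate 2. The Gcn4 element TGACTCA, bound by the activator of amino acid synthesis, was in 8 of 23 arginine promoters, against 2.66% of all promoters. It was held by 4 of the 9 genes that fell, the 1 that rose and 3 of 13 not called, with ARG4 shown.

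ARG4, chrVIII:141555-141601, minus strand: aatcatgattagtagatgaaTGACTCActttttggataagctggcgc

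The falls of these 4 lists numbered 10, 9, 6 and 3 without nHP mutation replicate 1, and 5, 6, 2 and 2 without nHP mutation replicate 2, in the order nitrogen, arginine, lysine with histidine and aromatics, and sulfur. They numbered 5, 6, 4 and 3 without nHP control replicate 1, and 9, 6, 3 and 3 without nHP control replicate 2. The rises numbered 0 to 3 on the nitrogen list and 1 to 6 on the sulfur list when 1 nHP library was left out. The third list had 7 falls under RLE size factors, under DESeq2 and without either HP mutation library.

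Genes of sugar uptake and of low oxygen had a few large falls. HXT4, a hexose transporter, had 294.4 and 367.5 CPM in mutation libraries and 731.3 and 664.3 CPM in control libraries (−1.08 ± 0.15, adjusted p = 0.000761). HXT6 fell by 1.37 ± 0.15 and is 99.8% identical to HXT7 where the 2 align, so its level is uncertain. On the hexose list 3 of 24 genes fell, or 12.5%, near the 9.91% of all genes tested. Fewer did when any 1 nHP library was left out. TDH1, a glyceraldehyde phosphate dehydrogenase of glycolysis, had 1585 and 1370 CPM, against 3290 and 3191 CPM (−1.13 ± 0.14). TDH1 is 90.2% identical to TDH2 where the 2 align. Of 28 oxygen and heme genes 9 fell and 5 rose, or 5 fell without nHP mutation replicate 1, and 2 rose without nHP mutation replicate 2 or nHP control replicate 1. The cell wall gene TIR1 fell by 1.01 ± 0.12, the heme synthesis gene HEM13 by 0.96 ± 0.11, and DAN1, another cell wall gene made without oxygen, had 0.6229 and 0.8659 CPM, against 3.786 and 4.978 CPM (−2.54 ± 0.34). In the cell wall list, 10 of 53 rose and 13 fell, CSS1 by 1.23 ± 0.13. These counts were 4 and 10 without nHP mutation replicate 2 and 4 and 8 without either nHP control library. PDR5, a drug exporter, fell by 0.79 ± 0.11, and BNA1 of NAD synthesis by 0.96 ± 0.09. URA3, on which growth without uracil depends, had 1842 and 1801 CPM, against 3939 and 4205 CPM (−1.16 ± 0.13).

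Some further lists had shares of calls above the background of 11.4% for rises and 9.91% for falls. Those given below for falls had 3, 1, 3, 2 and 0 rises, in the order listed. Those given for rises had 1, 3, 3, 2 and 0 falls. Cell separation passed the background for rises too (13.6%), and G2 to M for falls (10.3%). Falls numbered 6 of 22 among genes of cell separation, 8 of 43 of meiosis and sporulation, 7 of 35 of vitamin synthesis, 6 of 28 of gluconeogenesis and carbon derepression, and 3 of 12 of copper uptake. When any 1 nHP library was left out they numbered 4 to 6, 1 to 6, 5 to 9, 2 to 6 and 1 to 4. Rises numbered 8 of 46 among genes of the G1 to S phase of the cell cycle, 6 of 34 of ergosterol synthesis, 5 of 29 of G2 to M, 4 of 21 of pyrimidine synthesis, and 3 of 9 subtelomeric COS genes. When any 1 nHP library was left out they numbered 3 to 9, 1 to 6, 1 or 2, 0 to 5 and 0 to 2.

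On the following 6 lists the shares were near or under the background. None of 20 vacuolar ATPase genes was called by edgeR, nor by DESeq2, with 2 higher and 1 lower at an unadjusted p below 0.05 in edgeR. Of 42 autophagy genes 2 rose, of 22 trehalose and glycogen genes 1 rose, and the general stress response had 4 rises and 5 falls among 44 genes. Of 39 respiratory chain genes 4 rose and 2 fell, and of 34 iron genes 1 rose and 4 fell. Leaving out 1 of the 8 libraries moved these counts, and the largest was 11 falls in the stress list without HP control replicate 1. Of 16 TFIID genes, apart from the level of TAF10 given above, TAF9, TAF13 and TAF7 fell, by 0.53, 0.31 and 0.28, and the TFIID-associated BDF2 rose by 0.39. BDF2 was not called without nHP mutation replicate 1 (0.40), nHP mutation replicate 2 (0.41), nHP control replicate 2 (0.30) or composition normalization (0.26). TAF9 was not called without nHP mutation replicate 2 (−0.49) or nHP control replicate 2 (−0.35), and at most 1 of the 3 was called when any 1 nHP library was left out. TAF13 (−0.22 to −0.38) and TAF7 (−0.20 to −0.35) were not called without any 1 nHP library, without either HP mutation library or in DESeq2. On no list stood 4400 genes, of which 332 rose and 421 fell.

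The HP libraries give the same strain contrast in 4 other libraries, with 907 genes higher (14.7%) and 862 lower (14%). Of the 704 genes that rose in nHP, 58 rose in HP, which is 8.24% of them and 6.42% of the 903 such genes of HP. In HP 172 of the 704 fell and 474 were not called. The difference between the contrasts, which uses the libraries that chose these genes, was called for 561 of them, against 29.2% of all genes tested. The median log2 fold change of the 704 was 0.47 in nHP and −0.17 in HP, and the first of these is fixed by how they were chosen. Of the 577 genes that fell in nHP, 166 fell in HP, which is 28.8% of them and 20% of the 831 of HP, while 56 rose and 355 were not called. The difference was called for 280. Among the ribosome assembly genes none rose in HP and 60 fell, while 100 of the 109 had a called difference between nHP and HP. Of the 46 proteasome genes 3 rose and none fell in HP, with 36 called differences. BTN2 had a log2 fold change of 1.95 in nHP and −0.40 in HP (difference 2.36 ± 0.16, adjusted p = 4.25e-05), and ZPS1 had −2.82 and 0.60 (difference −3.42, adjusted p = 0.000258).

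Other genes were called in each contrast. Of the 29 tested Ty genes 18 fell in nHP and 19 in HP, and the difference was called for 1, the Ty3 gene. Summed over these 29 genes, Ty levels in HP were 141 and 134 CPM in mutation libraries and 284 and 261 CPM in control libraries. SRD1, ICS2, VBA2, NDJ1 and YGL193C fell in HP too, by 1.96, 2.11, 1.69, 2.80 and 3.68, with differences that did not pass the threshold. The count of called differences was 724 without nHP mutation replicate 2 and 2554 without HP control replicate 1.

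**Figure D4:**
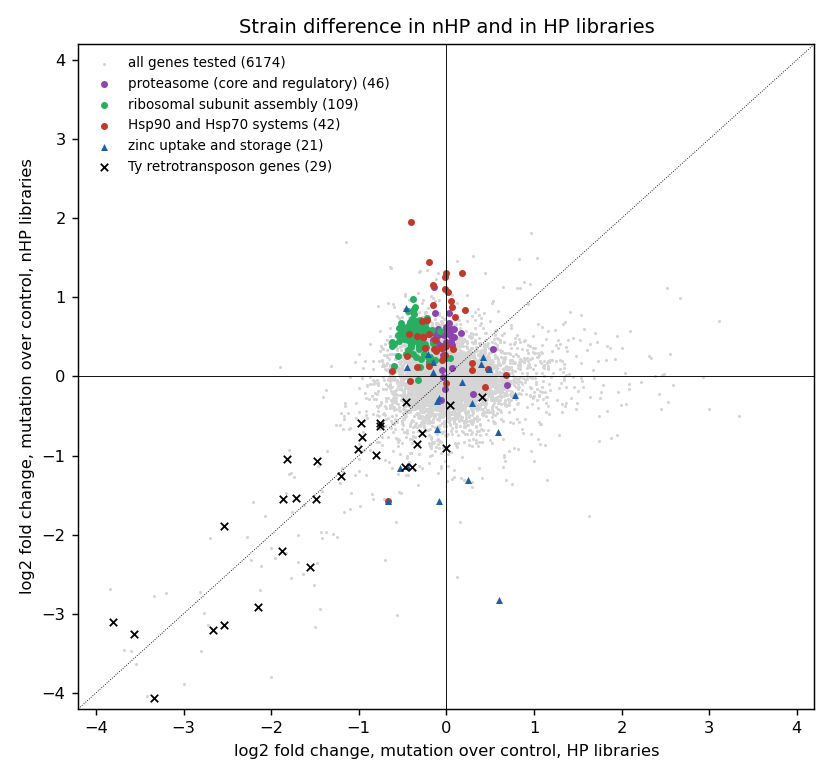
Log2 fold change of the strains in the nHP libraries (vertical) against that in the HP libraries (horizontal), which share no library, with the dotted line at equal values and 7 genes outside the axes. Most ribosome assembly genes lie above 0 in nHP and below 0 in HP, most proteasome and chaperone genes above 0 in nHP and around 0 in HP, and most Ty genes below 0 in both.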

How the data were processed

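Total RNA was sequenced from NEBNext Ultra libraries, per the labels' protocols, and the submitters' processing notes name TopHat2 2.0.9. Neither the counter and its use of strand nor the genome build and gene models are stated there. The authors deposited raw read counts per gene and RPKM values, which equal the deposited counts scaled by the library total and by 1 length per gene. Of 7126 IDs, 6048 matched the R64 gene table; the other 1078 held under 0.479% of the counts of a library. Coordinates and promoters are those of R64 and were not joined to the authors' coordinates.

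Counts were fitted with edgeR 4.0.16 in R 4.3.3 (standard filter, TMM scaling, 1 quasi-likelihood model of 4 group means over 8 libraries, 4 residual degrees of freedom, F test, two-sided), with Benjamini-Hochberg adjustment over 6174 genes. Standard errors come from the F statistic. The replicate numbers were not shown to pair libraries. Other settings tried were DESeq2 1.42.0, limma-voom 3.58.1, RLE size factors, no composition normalization, no filter, 10 CPM in 2 libraries, the 4 nHP libraries alone, a replicate block, at least 2-fold, and 1 library left out at a time.

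The comparison, the 59 gene lists, the motifs and the rule for named genes were chosen with earlier results of these data known. The rule names the 15 largest rises and falls (called, at least 10 CPM, no overlap, outside mating genes) and the 2 most changed members of each list. A gene that this rule names is not reported here. Genes named beyond it (HSC82, SSA2, HSP104, HSP42, CHO1, BLM10, PRE3, RPN4, ZRT1, ZRT2, ZAP1, FET4, TSA1, GLN1, MEP2, DAN1, HEM13, TAF13, TAF7, YJR027W and YGR109W-B) were chosen after their values were seen. Near-identical copies (at least 90% identity in an alignment of at least 30% of the length) were found with BLAST 2.17.0. Each identity given is that within the alignment, which may cover only part of a gene. Plots used matplotlib 3.10.9 under Python 3.11.15.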

Additional observations from a re-analysis of the deposited data

Results flagged for a closer look

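For the genes below, the strain difference in the nHP libraries differed from that in the HP libraries, by edgeR's test of the difference itself with Benjamini-Hochberg adjustment. Each value is the nHP log2 fold change minus the HP one, with mutation over control strain in each. The genes are those named above with a called difference, and 29.2% of all genes tested had one. Over all genes, leaving out 1 library gave between 724 such calls (without nHP mutation replicate 2) and 2554 (without HP control replicate 1).

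Among chaperone genes the difference was 2.36 for BTN2, 1.12 for CUR1, 1.65 for HSP82, 0.815 for HSC82, 1.27 for STI1, 1.31 for YDJ1, 1.11 for SIS1, 1.30 for FES1 and 1.04 for SSA2. It was 0.981 for HSP104, 1.06 for HSP42, −0.905 for HSP26, 0.881 for CCT2, 0.918 for HSP78, 0.894 for MDJ1, 1.38 for KAR2 and 1.14 for ERO1. Among proteasome genes it was 1.27 for ECM29, 0.937 for RPN1, 0.837 for PRE8, 0.51 for PRE4, 0.426 for PRE3, 0.778 for BLM10 and 0.803 for RAD23. Among genes of ribosome assembly and translation it was 1.36 for NOP7, 1.23 for NUG1, 1.16 for KRR1, 1.23 for ENP2, 1.16 for RPA190, 0.958 for PRT1 and −0.558 for ANB1.

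Among peroxide genes the difference was 2.84 for GPX2, 2.0 for SRX1 and 1.32 for TSA1. In biosynthesis and DNA synthesis it was 1.13 for GUA1, −0.972 for FCY2, 0.466 for LEU1, 0.87 for INO1, 1.02 for CHO1 and 1.23 for RNR1. It was 1.64 for ZPR1, 0.469 for HPF1, −1.41 for CYB2 and 0.773 for BDF2. Among zinc genes it was −3.42 for ZPS1, −1.48 for ZRT1, −1.29 for ZAP1, −1.55 for FET4, −0.624 for ADH4 and 0.491 for ZRT2.

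Among nitrogen and amino acid genes the difference was −0.614 for GLN1, −1.15 for MEP2, −0.568 for ARG4, −0.702 for HIS4 and −0.681 for YCT1. In sugar and oxygen genes it was −0.644 for HXT4, −1.05 for HXT6, −0.816 for TDH1, −1.19 for TIR1, −2.65 for DAN1 and −1.01 for HEM13. It was 0.565 for CSS1, −0.618 for PDR5, −0.563 for BNA1, −1.10 for URA3, −0.568 for TEC1, −0.544 for MOR1 and −0.899 for the Ty3 gene YGR109W-B.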

How the results depend on the processing

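No called gene named in the report changed direction under any alternative run. In the nHP comparison, without composition normalization 419 genes were higher and 1236 lower, and requiring at least a 2-fold change left 147 calls. DESeq2 called 1185 genes (736 higher, 449 lower), RLE size factors gave 1331, limma-voom 1320, no filter 1310, the 10 CPM filter 1327 and the 4 nHP libraries alone 1736. With the replicate number as a block, 1747 genes were called (925 higher, 822 lower), 2350 in HP and 2298 for the nHP minus HP difference. The numbers were not shown to pair the libraries, with only 2 pairs. Deviations of same-numbered libraries correlated at 0.262 between the strains in nHP and 0.269 in HP. Between nHP and HP they correlated at 0.16 in the mutation strain and 0.395 in the control strain. Across both strain and title the values were 0.368 (nHP mutation with HP control) and −0.0629 (nHP control with HP mutation).

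Leaving out 1 library gave 418 to 1860 calls in nHP, 178 to 999 of them higher and 211 to 897 lower, 661 to 2495 calls in HP, and 724 to 2554 for the difference. The lone library left in a group was assumed to vary like those of the other groups. The lowest nHP count came with nHP control replicate 1 left out. Of 141 named fold changes, calls ended for 39 without nHP control replicate 1, 38 without nHP mutation replicate 2, 26 without nHP control replicate 2, 13 without nHP mutation replicate 1, 14 and 13 when the first or second HP mutation library was left out, and 9 each in DESeq2 and without composition normalization. Counts for HP and the difference were added after the data were seen.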
